A study of Mus musculus with 6 samples.

Results

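The genes described here encode the subunits of the proteasome and of its activators, measured in regulatory T cells (Treg) with and without the histone deacetylase HDAC9. Members were all genes whose platform symbol is Psma, Psmb, Psmc, Psmd or Psme followed by a number, each represented by its brightest probe set among those with 1 symbol. This gave 41 of the 12393 genes on the array, measured by 74 probe sets. They fall into 8 alpha subunits and 7 constitutive beta subunits of the core, 3 immunoproteasome subunits, 6 ATPase and 14 non-ATPase subunits of the cap, and 3 activators. Psme2 was left out because its probe set carries several symbols.

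Total RNA came from CD4+CD25+ T cells that had been separated with magnetic beads, a fraction rich in Treg. The cells of 3 samples came from HDAC9-/- mice and those of the other 3 from wild type mice, and the labels give C57BL/6 as the strain of both. The labels name no treatment, transgene or Cre. They do not state the age of the mice, the deleted exons or whether each sample came from its own mouse. The p-values therefore measure the spread between these samples, and the number of arrays, 3 per genotype, limits the precision.

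The proteasome degrades proteins tagged with ubiquitin. Its core is a barrel with outer rings of alpha subunits, which form the gate, and inner rings of beta subunits, of which Psmb5, Psmb6 and Psmb7 carry the peptide-cutting sites. The cap recognises ubiquitin, removes it and uses ATPases to unfold the substrate and feed it into the core. In lymphocytes and in cells that see interferon-gamma, the inducible subunits Psmb8, Psmb9 and Psmb10 take the places of Psmb5, Psmb6 and Psmb7 and form the immunoproteasome, which favours peptides that fit MHC class I molecules.

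Of the listed markers of Treg and CD4 T cells, Foxp3, Il2ra, Ctla4, Cd4 and Cd3e were bright. Their means were 9.39 to 11.83 on the log2 scale in the 2 genotypes. Il2ra was lower on every HDAC9-/- array, with a difference of -0.08 (limma, adjusted p = 0.712). Of genes with a mean of at least 9, 9.85% lay apart and lower. Ikzf2 was dim on every array (4.36 to 5.29). The Hdac9 probe set was also dim, with values of 3.50 to 4.10 for the wild type and of 3.62 to 3.74 for HDAC9-/- samples, and does not check the genotype labels since the deleted exons are unknown. Wild type replicate 3 stood apart, with a mean correlation of 0.991 with the other arrays against 0.994 to 0.996 for the rest and the lowest array median (5.69 against 5.77 to 5.81). Myeloid markers were measured for 11 of 12 listed genes, and all 11 had a positive difference. Their score, the mean of the values after centring each gene, spanned -0.53 to -0.06 for the wild type and -0.05 to 0.40 for HDAC9-/- samples. The score of the 7 CD8 T and natural killer cell markers spanned -0.21 to 0.01 and -0.11 to 0.32 in the same order. Plasma cell markers were measured for 3 of 4 listed genes, and their score was 0.08 on every wild type array and -0.23 to 0.0024 on the HDAC9-/- arrays. Of these, Jchain, the joining chain of secreted antibodies, was bright and differed by -0.47 (limma, adjusted p = 0.337), while Sdc1 and Prdm1 differed by -0.05 and 0.02. Itgam, Pax5 and the red cell and platelet genes were dim (3.04 to 5.01 over all arrays). The other measured B cell markers, Ms4a1, Cd79a and Cd79b, were above the array median, with means of 7.91, 7.42 and 8.17. The score of the B cell markers spanned -0.15 to 0.11 for the wild type and -0.34 to 0.28 for HDAC9-/- samples. The 3-prime to 5-prime difference of the Gapdh control probe sets, a measure of RNA integrity and labelling, was 0.03 to 0.11 for the wild type and 0.15 to 0.28 for HDAC9-/- samples. That of the actin control probe sets overlapped, at 0.33 to 0.46 and 0.42 to 0.60. In bulk samples such as these, more cells of a type cannot be told apart from more RNA per cell.

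The upstream sequences of 2 constitutive catalytic subunits and of the inducible subunits that replace them are shown because the values of Psmb5 and Psmb6 lay apart between the genotypes and those of Psmb8 and Psmb9 overlapped. They are the 250 bases before the start site from RefSeq on GRCm38.p6, printed 5′ to 3′ on the strand of the gene. Psmb5 lies at chr14:54617996-54618245 on the minus strand and Psmb6 at chr11:70525107-70525356 on the plus strand. Psmb8 lies at chr17:34197945-34198194 on the plus strand and Psmb9 at chr17:34187331-34187580 on the minus strand. Capitals mark matches to 4 motifs searched on both strands: the CCAAT box (CCAAT), the antioxidant response element TGACNNNGC, the interferon-stimulated response element (GAAA, any 2 bases, GAAA) and the gamma-activated site TTCNNNGAA.
Psmb5: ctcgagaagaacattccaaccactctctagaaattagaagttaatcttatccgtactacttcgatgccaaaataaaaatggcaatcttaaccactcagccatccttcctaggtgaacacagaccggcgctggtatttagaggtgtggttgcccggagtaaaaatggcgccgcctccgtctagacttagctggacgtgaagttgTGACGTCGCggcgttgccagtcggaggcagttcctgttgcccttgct
Psmb6: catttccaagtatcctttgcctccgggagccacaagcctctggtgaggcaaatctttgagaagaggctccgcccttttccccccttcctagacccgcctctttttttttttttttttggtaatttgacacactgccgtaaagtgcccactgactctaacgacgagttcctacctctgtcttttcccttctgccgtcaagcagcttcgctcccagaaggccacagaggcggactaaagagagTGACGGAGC
Psmb8: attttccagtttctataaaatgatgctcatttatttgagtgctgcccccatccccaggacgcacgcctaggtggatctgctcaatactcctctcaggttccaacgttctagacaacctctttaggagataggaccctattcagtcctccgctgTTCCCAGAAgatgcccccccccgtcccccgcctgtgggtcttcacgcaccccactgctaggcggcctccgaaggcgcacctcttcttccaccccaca
Psmb9: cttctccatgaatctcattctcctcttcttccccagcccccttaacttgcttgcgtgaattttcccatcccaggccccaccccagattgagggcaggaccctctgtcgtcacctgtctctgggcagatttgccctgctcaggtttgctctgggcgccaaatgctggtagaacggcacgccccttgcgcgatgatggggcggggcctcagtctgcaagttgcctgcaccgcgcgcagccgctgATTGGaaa
The windows of Psmb5 and Psmb6 each hold 1 antioxidant response element, at -47 to -39 and at -9 to -1 from the start site. The window of Psmb8 holds a gamma-activated site and that of Psmb9 a CCAAT box on the opposite strand. An entry was found for 34 of the 41 members. Over these, 13 windows (38.2%) held a CCAAT box, against 37.5% of the 27025 genes with an entry, and 5 (14.7%) held the antioxidant element, against 11.5%. The interferon-stimulated element was found in 3 members (8.82%, against 3.46%) and the gamma-activated site in 1 (2.94%, against 8.13%). Among the 9883 genes on the array with an entry, the shares of the 4 motifs in this order were 39.8%, 13.5%, 3.35% and 7.32%. The CCAAT box was found in 5 of 7 alpha subunit windows, those of Psma1, Psma2, Psma3, Psma6 and Psma7. It was found in 1 of 4 windows of constitutive beta subunits, 1 of 3 of the immunoproteasome, 2 of 5 of the ATPases, 3 of 12 of the non-ATPases and 1 of 3 of the activators. These are matches of letters in a fixed window and show neither binding nor use.

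No proteasome gene passed the test over the whole array, and the differences were small. With limma, 0 of the 41 genes reached an adjusted p below 0.05, a threshold passed by 0.0133% of all probe sets, and the lowest adjusted p of a member was 0.557. At an unadjusted p below 0.05, 1 gene was higher (2.44% of the members, against 6.12% of all genes) and 0 were lower (against 2.62%). When the variance prior was allowed to depend on brightness and to discount outlying probe sets, 0 passed and 11 members were higher at that unadjusted p, against 7.85% of all genes under the same prior. The differences on the log2 scale, taken as HDAC9-/- less wild type, ran from -0.11 to 0.22, with a median of 0.08, or 5.37%. The median over all genes was 0.01, and over the 2071 genes with a mean of at least 9 it was 0.02.

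The signs leaned one way. Of the 41 genes, 33 (80.5%) had a positive difference, against 54.0% of all genes and 57.0% of those with a mean of at least 9. All 3 HDAC9-/- arrays lay above all 3 wild type arrays for 17 members (41.5%), against 12.5% of all genes, and below them for 1 member (2.44%, against 5.70%). Among members with a mean of at least 9, 16 of 31 (51.6%) lay above, against 21.1% of genes as bright, and 0 lay below, against 9.85%. With 5 arrays fewer genes overlap, so these shares rise: without wild type replicate 3, 19 members lay above, against 17.8% of all genes, and 2 below, against 12%. Leaving out either other wild type array or HDAC9-/- replicate 3 also gave 2 members below, against 9% to 10.7% of all genes. The count depended on the scaling. It was 12 when the arrays were quantile normalized again, where 11.7% of all genes lay above, and 8 (19.5%) when the array medians were aligned, where 8.88% did. Under that alignment 32 members had a positive difference and their median was 0.05. On the deposited scaling, the members in which the groups did not overlap upward were Psma1, Psma2, Psma3, Psma6, Psmb1, Psmb2, Psmb3, Psmb5, Psmb6, Psmc2, Psmc3, Psmc6, Psmd3, Psmd6, Psmd8, Psmd9 and Psmd14. They include core and cap genes but none of the immunoproteasome or the activators, classes of only 3 genes each. With the array medians aligned, 0 of the 6 cap ATPases lay above either.

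**Figure D1:**
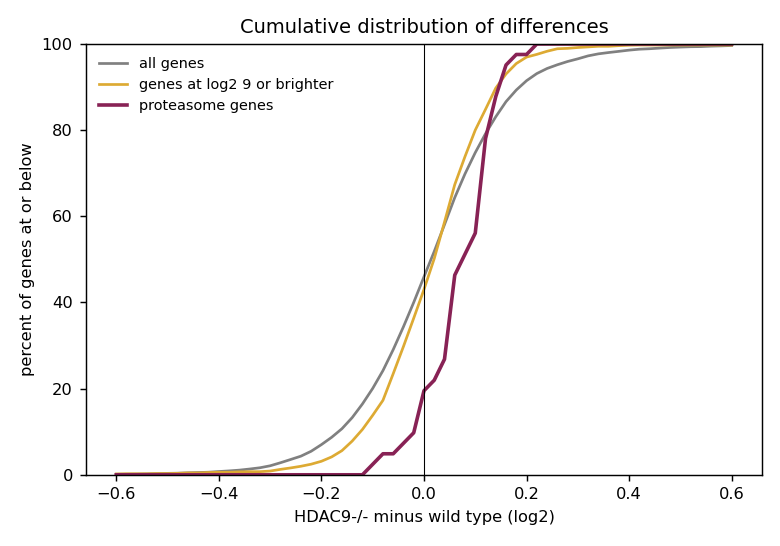
Percent of genes (y axis) whose difference between HDAC9-/- and wild type arrays, in log2 units, is at or below the value on the x axis, for all genes, for genes with a mean log2 value of at least 9 and for the proteasome genes. The proteasome curve lies to the right of the others around 0, with a median of 0.08 against 0.01 and 0.02, and it ends at 0.22.

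**Figure D2:**
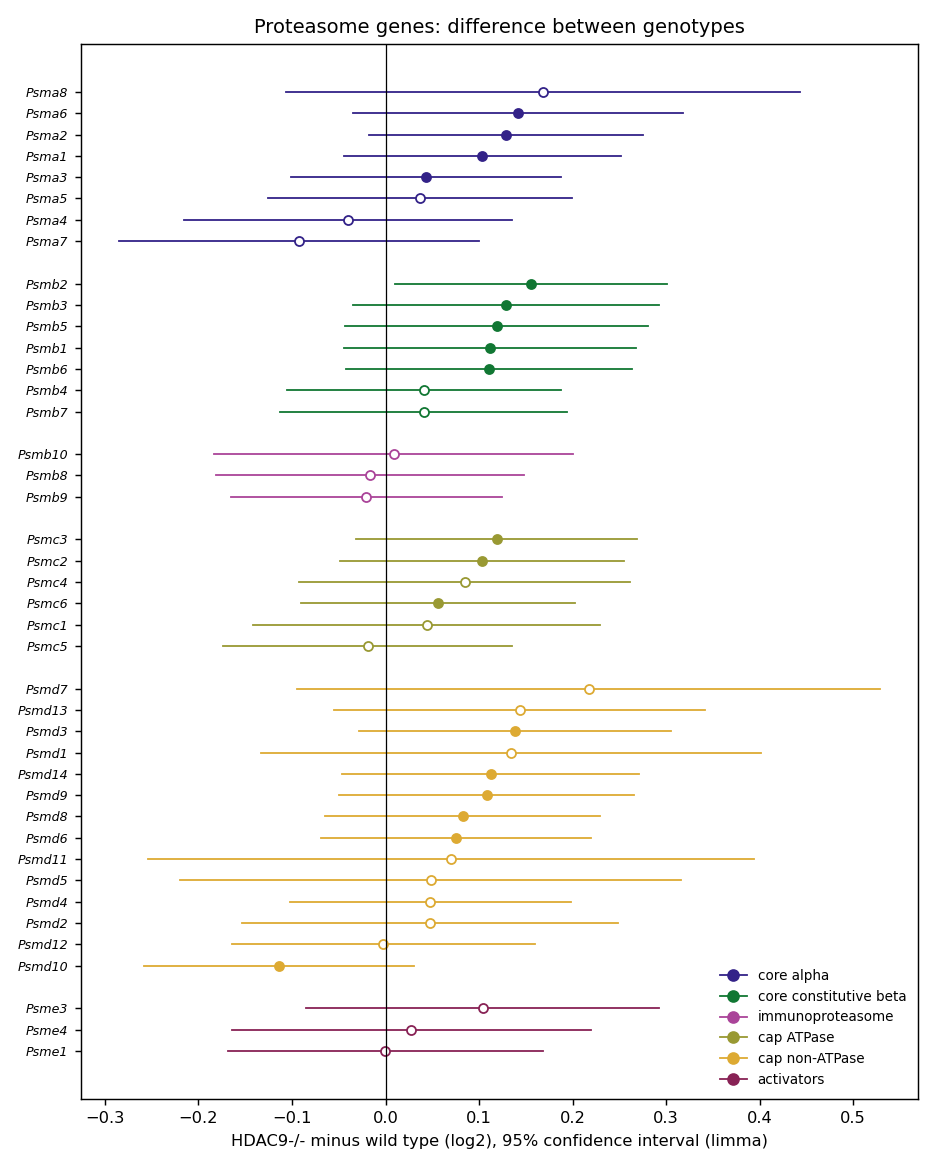
Difference between HDAC9-/- and wild type (x axis, log2) for each of the 41 proteasome genes (y axis), with its 95% confidence interval from limma, coloured by class. Filled points mark genes whose 3 HDAC9-/- arrays all lie on one side of the 3 wild type arrays, which are 17 higher genes and Psmd10, and every interval but that of Psmb2 includes 0.

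The constitutive beta subunits, which line the chamber where proteins are cut, had the largest class median. In their brightest probe sets all 7 had a positive difference, from 0.04 to 0.16, with a median of 0.11 (8.02%). The groups did not overlap for 5 of them. Another bright probe set of Psmb4, with a mean of 9.57, differed by -0.08 with overlapping groups, against 0.04 in the brightest. Psmb2, a non-catalytic subunit of the ring, read 10.09, 10.09 and 10.07 on the wild type arrays, in the order of their replicate numbers as throughout, and 10.27, 10.23 and 10.21 on the HDAC9-/- arrays. The HDAC9-/- arrays lay together above the wild type arrays, and the spread within each genotype was small. Its difference of 0.16 had a standard error of 0.06 and a confidence interval of 0.01 to 0.30, and did not pass over the array (limma, adjusted p = 0.557). Psmb3, another subunit without a cutting site, read 10.84, 10.81 and 10.75 against 10.98, 10.94 and 10.86. The gap between the lowest HDAC9-/- and the highest wild type array was narrow, and the difference of 0.13 did not pass (limma, adjusted p = 0.617). The groups overlapped when the arrays were quantile normalized again, and the other probe set of the gene gave 0.06 with overlapping groups.

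Of the 3 constitutive catalytic subunits, Psmb5 and Psmb6 were higher on every HDAC9-/- array, and Psmb7 was not. Psmb5, which carries the chymotrypsin-like site, read 9.92, 9.87 and 9.81 in wild type and 10.04, 9.98 and 9.93 in HDAC9-/- samples, a difference of 0.12 (standard error 0.07, limma adjusted p = 0.635). Psmb6, which carries the caspase-like site, read 10.31, 10.31 and 10.24 against 10.42, 10.41 and 10.35, a difference of 0.11 (standard error 0.06, limma adjusted p = 0.636). In both genes replicate 3 of each genotype was the lowest of its group. Psmb7, which carries the trypsin-like site, read 10.59, 10.60 and 10.69 against 10.65, 10.69 and 10.66, and the groups overlapped. Its difference was 0.04, with an interval of -0.11 to 0.19. None of these genes passed, and the groups of Psmb5 overlapped when the array medians were aligned or the arrays were quantile normalized again.

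The immunoproteasome subunits were bright in both genotypes and differed by little. Psmb8, the inducible counterpart of Psmb5, read 11.74, 11.71 and 11.62 in wild type and 11.70, 11.71 and 11.61 in HDAC9-/- samples. Psmb9, the counterpart of Psmb6, read 11.04, 10.98 and 10.99 against 10.99, 10.96 and 10.99. Psmb10, the counterpart of Psmb7, read 10.63, 10.51 and 10.43 against 10.56, 10.59 and 10.45. The genotypes overlapped for all 3 genes, and their differences of -0.02, -0.02 and 0.0087 were smaller than their standard errors of 0.07, 0.06 and 0.08. The sign of Psmb10 turned when the array medians were aligned. The confidence intervals ran from -0.18 to 0.15 for Psmb8, from -0.17 to 0.12 for Psmb9 and from -0.18 to 0.20 for Psmb10, so differences of the size seen for Psmb5 and Psmb6 lie within these intervals.

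**Figure D3:**
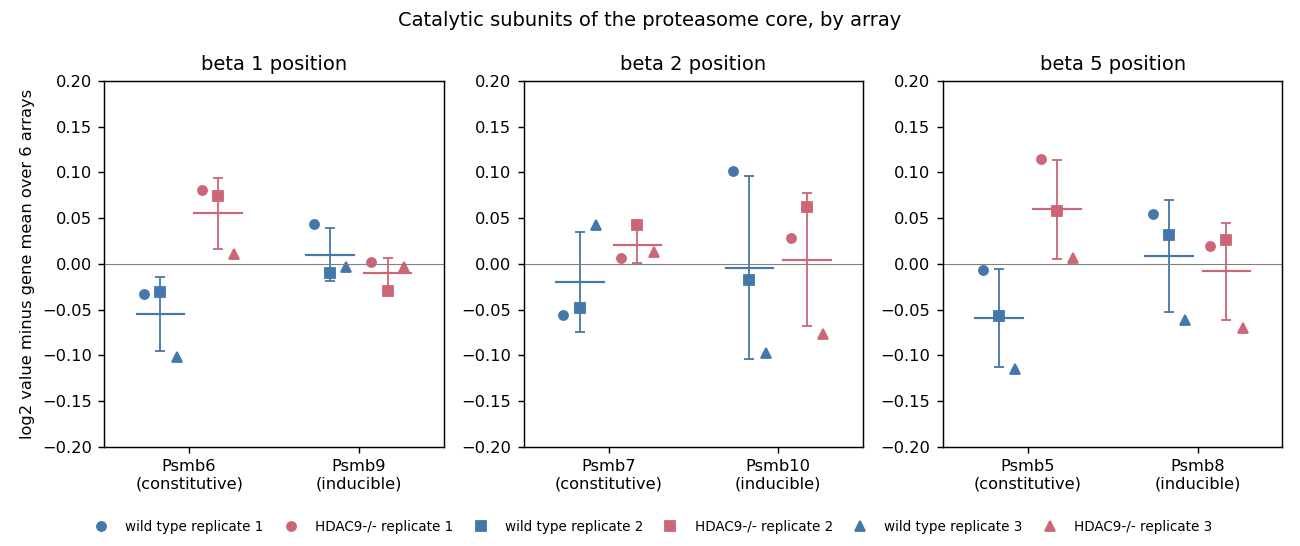
Log2 value of each array minus the mean of the gene over all 6 arrays (y axis) for the constitutive and inducible catalytic subunits that occupy the same place in the ring (x axis). Points are single arrays with a symbol for each replicate, horizontal lines are group means and error bars are the SD (n = 3). Psmb6 and Psmb5 have their HDAC9-/- arrays above their wild type arrays, and Psmb7, Psmb9, Psmb10 and Psmb8 overlap.

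Within each array, the value of the inducible subunit relative to its constitutive counterpart was lower in HDAC9-/- samples for 2 of the 3 pairs. Centred on its own mean, Psmb8 minus Psmb5 was 0.06, 0.09 and 0.05 in wild type and -0.10, -0.03 and -0.08 in HDAC9-/- samples, and the groups did not overlap. Psmb9 minus Psmb6 was 0.08, 0.02 and 0.10 against -0.08, -0.10 and -0.01, and did not overlap either. The differences were -0.14 and -0.13, each with a two-sided exact permutation p of 0.1, the smallest that 3 against 3 arrays allow, and 0.15 after adjustment over the 3 pairs. Psmb10 minus Psmb7 differed by -0.03 and overlapped widely, with an SD of 0.15 over the wild type and of 0.064 over the HDAC9-/- arrays (exact permutation p = 0.8). A shift of a whole array cancels in these ratios, so aligning the array medians cannot test them. Quantile normalized again, Psmb5 and Psmb8 differed by 0.11 and -0.01, and Psmb6 and Psmb9 by 0.10 and -0.03. The ratios do not tell which gene of a pair differs. They reuse the values of Psmb5 and Psmb6, already seen to lie apart, and are not separate evidence.

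The partners of the immunoproteasome in antigen presentation had mostly negative differences. Psmb9, Tap1, Psmb8 and Tap2 follow each other on chromosome 17 in the MHC, in the gene order of GRCm38.p6. Tap1 and Tap2, the subunits of the peptide transporter of the endoplasmic reticulum, had differences of -0.0065 and 0.03. Of the 10 measured genes of MHC class I presentation (12 were listed), 2 had a positive and 8 a negative difference, with a median of -0.06, and 0 passed (limma), with 0 at an unadjusted p below 0.05. The groups did not overlap for 3 of them, all lower in HDAC9-/- samples. Of all genes, 5.70% lay apart and lower, and of those with a mean of at least 9, 9.85% did. H2-D1, a class I heavy chain, read 13.62, 13.65 and 13.69 against 13.51, 13.56 and 13.60. Pdia3, a chaperone that helps load the heavy chain, had the smallest p of the list at a difference of -0.14 (limma, adjusted p = 0.634), with overlapping groups, and -0.09 without wild type replicate 3. Interferon-stimulated genes were mixed, with 3 positive and 7 negative differences among 10 and a median of -0.07. Mx1, an antiviral GTPase, differed by 0.47 and Rsad2, an antiviral enzyme, by 0.27, while Usp18, which restrains interferon signalling, differed by -0.32. None of the 3 passed (limma, adjusted p = 0.307 to 0.517).

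The alpha subunits, which form the outer rings, had a median difference of 0.07 (5.22%), with 6 genes positive and 2 negative. Of the 8, 4 did not overlap, all upward. Psma2 read 11.62, 11.59 and 11.55 in wild type and 11.73, 11.72 and 11.71 in HDAC9-/- samples. The HDAC9-/- arrays were tightly grouped above the wild type arrays, at 11.72 ± 0.010 against 11.59 ± 0.039 (SD, n = 3), and the difference of 0.13 did not pass (limma, adjusted p = 0.601). Psma6 read 10.65, 10.68 and 10.78 against 10.79, 10.82 and 10.93, a difference of 0.14 (limma, adjusted p = 0.611). Its brightest probe set has a suffix that marks probes matching other sequences too, and the next brightest, without that suffix, gave 0.08 and also did not overlap. The groups of the brightest probe set of Psma6 overlapped when the array medians were aligned. Psma7, chosen after its values were seen because it had the most negative difference of the class, read 9.44, 9.64 and 9.54 against 9.41, 9.40 and 9.53, with overlapping groups. Psma8, the testis form of an alpha subunit, was the 1 member below the median of all probe sets (5.76). Its wild type values were 3.79, 3.37 and 3.69 and its HDAC9-/- values 3.76, 3.78 and 3.82. Its difference was 0.17, and became 0.04 or 0.26 when replicate 2 or 1 of the wild type was left out. Without the gene the median of the class was 0.04.

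The ATPases of the cap, which unfold substrates and open the gate of the core, had 5 positive and 1 negative difference and a median of 0.07 (4.99%), and 3 of the 6 lay above. Psmc3 read 10.09, 10.003 and 10.05 in wild type and 10.20, 10.15 and 10.14 in HDAC9-/- samples, a difference of 0.12 (limma, adjusted p = 0.614). Psmc2 read 10.15, 10.12 and 10.20 against 10.22, 10.27 and 10.29, a difference of 0.10 (limma, adjusted p = 0.653). This probe set also has the suffix noted for Psma6, and the other, without it, gave 0.05 and did not overlap either. For Psmc3 and Psmc2, every HDAC9-/- array lay above every wild type array by a narrow gap. Neither they nor Psmc6 remained apart when the array medians were aligned, so 0 of the 6 ATPases lay above under that scaling. Psmc5 was the member with a negative difference, at -0.02.

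The non-ATPase group of the cap holds the scaffold, the ubiquitin receptors, the deubiquitinase and 3 assembly chaperones. It had 12 positive and 2 negative differences and a median of 0.08 (5.63%), and 5 of the 14 lay above and 1 below. Psmd3, a scaffold subunit of the lid, read 9.47, 9.48 and 9.41 in wild type and 9.67, 9.51 and 9.60 in HDAC9-/- samples, a difference of 0.14 (standard error 0.07, limma adjusted p = 0.609). Psmd10, an assembly chaperone of the ATPase ring also known as gankyrin, was the 1 member below on every HDAC9-/- array. It read 7.07, 7.03 and 7.03 against 6.91, 6.95 and 6.92, a difference of -0.11 that did not pass (limma, adjusted p = 0.614) and kept its sign and its separation under both other scalings. The other chaperones, Psmd5 and Psmd9, had differences of 0.05 and 0.11, and the groups of Psmd9 did not overlap. Psmd7, the partner of the deubiquitinase Psmd14 and chosen after its values were seen, had the largest difference of all members, 0.22, but read 7.93, 8.07 and 7.67 against 7.97, 8.05 and 8.30. Its groups overlapped, and its interval ran from -0.09 to 0.53. The value rested on few arrays and on 1 probe set. It was 0.13 with array weights, 0.11 if wild type replicate 3 was dropped and 0.12 if HDAC9-/- replicate 3 was. With its probe sets averaged it was 0.01, but the others were dim, with means of 5.73 and 3.61, below the array median.

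The activators bind the ends of the core in place of the cap. Psme1, the interferon-inducible subunit of the activator that goes with the immunoproteasome, read 11.83, 11.82 and 11.97 in wild type and 11.90, 11.83 and 11.88 in HDAC9-/- samples, and the means of 11.87 were equal within 0.001. The interval of its difference ran from -0.17 to 0.17. Psme3, which forms a nuclear activator, read 8.85, 8.64 and 8.73 against 8.90, 8.84 and 8.80, a difference of 0.10 with overlapping groups (limma, adjusted p = 0.702), which was 0.02 with its probe sets averaged, and 0.05 or 0.16 when replicate 2 or 1 of the wild type was left out. Psme4, a single-chain activator, read 8.88, 8.72 and 8.66 against 8.78, 8.73 and 8.83, a difference of 0.03. No activator thus had its groups apart in the brightest probe set.

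Several members had probe sets that disagreed. Of the 19 genes with more than 1 probe set, Psmd4, the ubiquitin receptor that is known to be spliced into several forms, had the clearest case. Its brightest probe set differed by 0.05, with overlapping groups. The second read 8.61, 8.65 and 8.73 in wild type and 8.52, 8.54 and 8.55 in HDAC9-/- samples (difference -0.13), and the dimmest 6.23, 6.43 and 6.48 against 6.58, 6.63 and 6.68 (difference 0.25). The groups did not overlap in either of these, and the directions were opposite; neither passed (limma, adjusted p = 0.609 and 0.536). Another probe set of Psme3 differed by 0.20 without overlap (limma, adjusted p = 0.557), and its dim probe set by -0.23. Another of Psma5 differed by 0.17 without overlap, against 0.04 in the brightest. Over the 18 other probe sets of members at or above the median of the array, 10 had a positive and 8 a negative difference, with a median of 0.03, against 33 positive of 41 and a median of 0.08 in the brightest probe sets. With all probe sets of a gene averaged, the median of the members was 0.05.

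**Figure D4:**
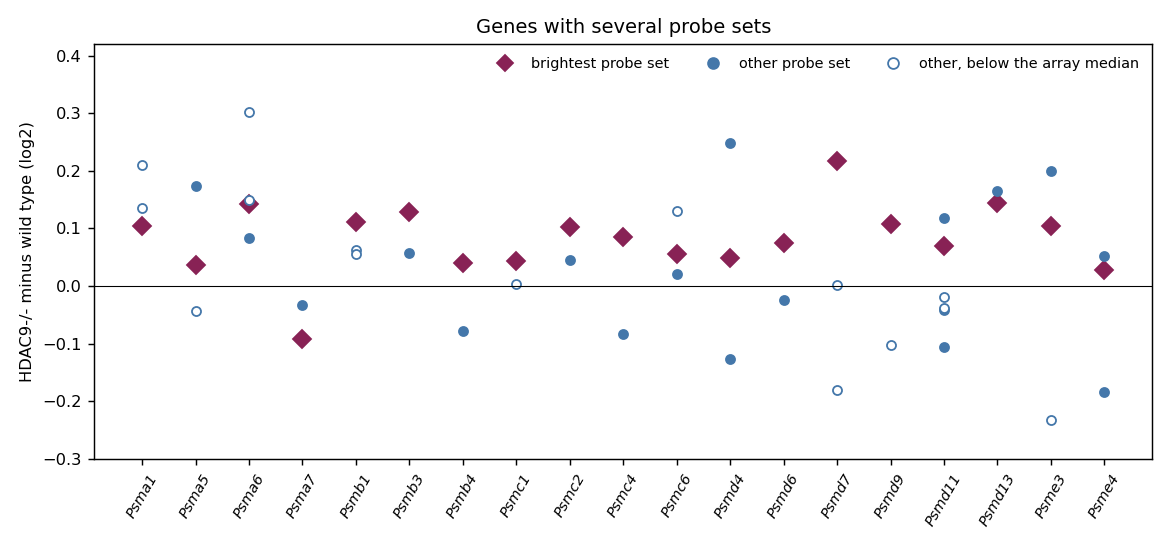
Difference between HDAC9-/- and wild type (y axis, log2) for each probe set of the 19 proteasome genes that have several (x axis). Diamonds are the brightest probe sets used elsewhere, circles the others, and open circles those with a mean below the array median of 5.76. Psmd4 has circles at -0.13 and 0.25 on either side of its diamond at 0.05.

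The class scores showed how the arrays varied. Core alpha scores were -0.03, -0.04 and -0.03 on the wild type arrays and 0.0071, 0.03 and 0.06 on the HDAC9-/- arrays. Constitutive beta scores were -0.03, -0.05 and -0.07 against 0.08, 0.06 and 0.01. On the deposited scaling the genotypes did not overlap in these classes or in the ATPases and non-ATPases of the cap. Immunoproteasome scores, 0.07, 0.0015 and -0.05 against 0.02, 0.02 and -0.05, overlapped. Wild type replicate 3 had the lowest array median (5.69), and aligning the medians raises its scores relative to the other arrays. In the alpha, constitutive beta and ATPase classes it then no longer lies below all HDAC9-/- arrays, so the genotypes overlap. Wild type replicate 3 was far below the others for the non-ATPases (-0.12 against -0.01 and 0.01), and without it the median difference of all members was 0.06. The myeloid score also lay apart by genotype. HDAC9-/- replicate 3 had a score of -0.05, next to the -0.06 of wild type replicate 3. Wild type replicates 1 and 2 had myeloid scores of -0.53 and -0.13. The S100a8 and S100a9 values of HDAC9-/- replicate 3 exceeded those of every wild type array. Taken singly, HDAC9-/- replicates 1, 2 and 3 lay above all wild type arrays for 24, 21 and 21 of the 35 core and cap genes (68.6%, 60% and 60%). The shares of all genes that did so were 33.6%, 27.6% and 27.5%, and those of genes with a mean of at least 9 were 39.7%, 31.1% and 38.5%. The part of the myeloid and plasma cell markers in these values was not tested. The HDAC9-/- arrays also had the wider Gapdh 3-prime to 5-prime difference, though not apart for actin, and its part in the result was not tested.

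**Figure D5:**
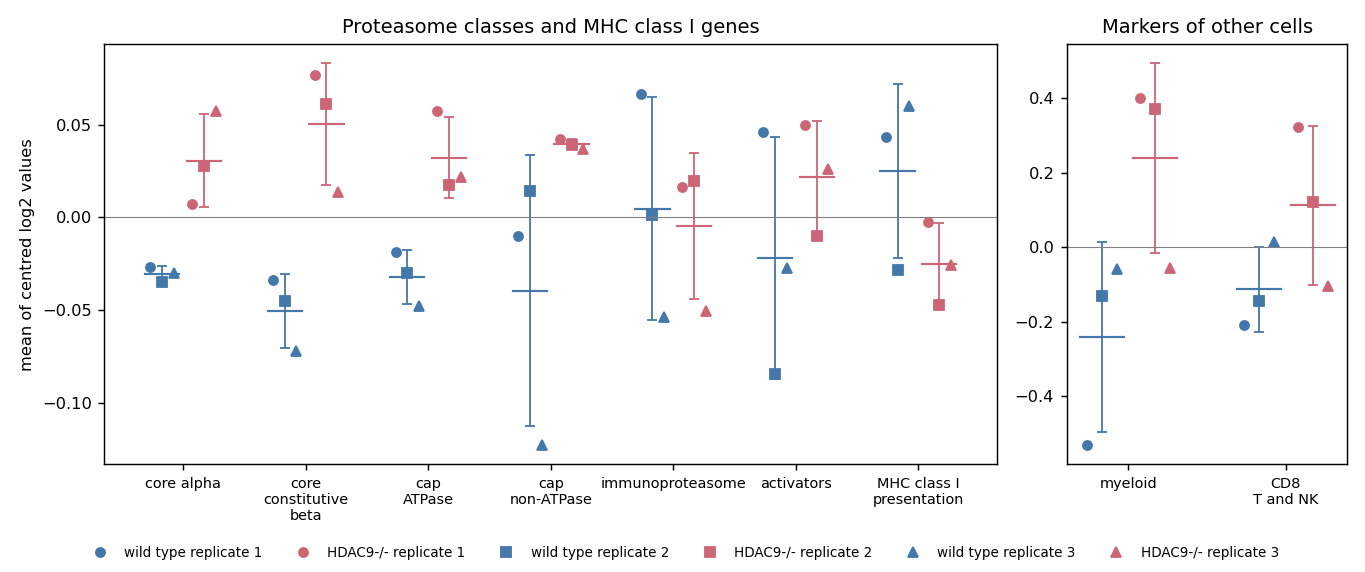
Mean over the genes of a class of the log2 value after centring each gene on its 6 arrays (y axis, scales differ between panels), for the proteasome classes, MHC class I genes and marker lists of other cells. Points are arrays, lines are group means and error bars the SD (n = 3). On the deposited scaling, core and cap classes separate by genotype, and immunoproteasome and activators overlap. The myeloid score also separates, at -0.53 to -0.06 for wild type and -0.05 to 0.40 for HDAC9-/- samples. Its nearest arrays are HDAC9-/- replicate 3 (-0.05) and wild type replicate 3 (-0.06).

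Assembly factors and proteins bound to the proteasome had mostly positive differences. Of 15 listed genes 13 were measured, 10 with a positive and 3 with a negative difference and a median of 0.08, and the groups lay apart upward for 4 (30.8%, against 12.5% of all genes). Psmg4, a chaperone that helps build the alpha ring, read 8.21, 8.30 and 8.19 in wild type and 8.44, 8.48 and 8.47 in HDAC9-/- samples, a difference of 0.23 (standard error 0.07, limma adjusted p = 0.445). Psmg1, another chaperone of that ring, read 8.71, 8.70 and 8.54 against 8.87, 8.88 and 8.85, a difference of 0.22 (limma, adjusted p = 0.517). Both sets of HDAC9-/- arrays were tightly grouped above the wild type arrays. Both genes had an unadjusted p below 0.05 without passing over the array, where 6.12% of all genes were higher at that p. Pomp, the chaperone that matures the beta ring, differed by 0.10 with overlapping groups.

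Regulators of the transcription of proteasome genes had mixed signs. Of 6 measured regulators, among them Ngly1 (0.03), an enzyme and not a transcription factor, 3 had a positive and 3 a negative difference. At an unadjusted p below 0.05, 2 were lower (against 2.62% of all genes), without passing. Nfe2l2, a factor of the antioxidant response element, read 7.95, 7.81 and 7.86 in wild type and 7.68, 7.57 and 7.51 in HDAC9-/- samples, a difference of -0.29 (limma, adjusted p = 0.441). Nfya, a subunit of the factor that binds the CCAAT box, read 8.50, 8.24 and 8.23 against 8.13, 8.04 and 8.05, a difference of -0.25 (limma, adjusted p = 0.544). The value was -0.11 with its probe sets averaged and -0.17 without wild type replicate 1. The groups of both genes did not overlap, where 5.70% of all genes lay apart and lower. Nfe2l1, which restores proteasome genes when the proteasome is inhibited, differed by -0.07. The ubiquitin supply and shuttle genes had 5 positive and 5 negative differences among 10 measured of 16, with a median of 0.0050. Faf1, an adaptor of the unfoldase that extracts ubiquitinated proteins, read 8.60, 8.51 and 8.47 against 8.83, 8.80 and 8.90, a difference of 0.32 that did not pass (limma, adjusted p = 0.398) and was 0.06 with its probe sets averaged.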

How the data were processed

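Gene expression was measured in 3 HDAC9-/- and 3 wild type samples, 1 array each. The deposited log2 values, 1 per probe set and array, are the authors' RMA output per the submitters' processing notes, whose version was not given in the labels. RMA pulls dim probe sets together, which understates their differences. Of 22690 probe sets, 64 controls were left out and 22626 were tested without a filter; 20380 carry 1 symbol in the platform annotation. The limma package (3.58.1, run under R 4.3.3) compared the genotypes by lmFit and eBayes without covariates, with Benjamini-Hochberg adjustment over all probe sets and a threshold of 0.05. The fit was tested on simulated data with independent noise. The differences added there were all larger than that of any member, so the test does not cover differences as small as those of the members. A list is described by counts and medians over 1 probe set per gene, beside all genes. Named genes are the catalytic subunits, the activators, the 2 smallest p of each class, and partner genes with an unadjusted p below 0.05 or, failing that, the 2 smallest p; members with disagreeing probe sets were added, and all other genes given with values were chosen after those were seen. Members and lists were chosen with earlier results of these data known. Promoter windows were matched by gene identifier to RefSeq (GRCm38.p6). Alternatives were other scalings, filters, priors, weights, probe set choices, the replicate block and leaving out each array. Plots were made in Python 3.11.15 (matplotlib 3.10.9).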

Additional observations from a re-analysis of the deposited data

How the results depend on the processing

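No proteasome gene passed under any alternative run, and the core and cap medians stayed positive under all of them. The number of probe sets past the threshold over the array was 3, and became 1 when the probe sets of a gene were averaged, 15 with the trended and robust prior, 6 with array weights, 0 with the replicate number as a block and 0 to 6 with 1 array left out; the cause was not tested. The count of members higher at an unadjusted p below 0.05 was 1, and became 0 with array medians aligned or with the replicate block, 2 with dim probe sets left out or with array weights, 3 with averaged probe sets, 11 with the trended and robust prior (7.85% of all genes, against 6.12%) and 0 without any 1 of the arrays, where fewer samples were tested. The count of lower members was 0 and became 1 with dim probe sets left out. The 17 members apart and higher became 8 with array medians aligned and 17 to 21 without 1 array, where 15.8% to 19.5% of all genes lay apart and higher, against 12.5% with all arrays; the members apart and lower were 1 to 2. The median of all members (0.08) was 0.050 with array medians aligned, 0.048 with averaged probe sets and 0.056 to 0.088 with 1 array left out. For the alpha subunits (0.07) it was 0.048, 0.043 and 0.092 with array medians aligned, dim probe sets left out and averaged probe sets. For the cap ATPases (0.07) it was 0.045 and 0.046 with array medians aligned and averaged probe sets, 0.051 with probe sets of an _x_at or _s_at suffix left out, an alternative chosen after seeing the data, and 0.052 to 0.081 with 1 array left out. Leaving out 1 array gave 0.056 to 0.089 for the alpha subunits, 0.087 to 0.14 for the constitutive beta subunits, -0.038 to 0.014 for the immunoproteasome, 0.057 to 0.11 for the non-ATPases and 0.0045 to 0.091 for the activators.

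Genes near 0 changed sign. Psmb8 was -0.051 to 0.014 with 1 array left out, and positive without wild type replicate 1 (0.0065) or HDAC9-/- replicate 3 (0.014). Psmb10 was -0.017 with array medians aligned, -0.012 with array weights and -0.038 to 0.062 with 1 array left out, negative without wild type replicate 3 (-0.038) and without replicates 1 (-0.0031) and 2 (-0.020) of HDAC9-/-. Psme1 was 0.0036 with quantile normalization again, 0.022 with array weights and -0.027 to 0.046 with 1 array left out, positive without wild type replicate 3 (0.046) or HDAC9-/- replicate 2 (0.019). Psme4 was -0.035 with averaged probe sets, -0.023 with array weights and -0.020 to 0.091 with 1 array left out, negative without wild type replicate 3 (-0.020). Same-numbered samples of the genotypes correlated at 0.04, 0.10 and -0.25 in their deviations from the group means. Samples with different numbers correlated at -0.35 to 0.28. With 3 arrays per genotype these values cannot settle whether the numbers pair the samples. Under the replicate block, as without it, 0 members passed the adjusted threshold. Quantile normalization again and aligned medians moved the median of all genes to 0.0072 and -0.01.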
